A study of Rattus norvegicus with 4 samples.

Results

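RNA-seq of CG4, a rat line of glial progenitors able to become myelin-making oligodendrocytes, gave the levels of the transcripts that encode the respiratory chain. Members were all genes of the deposited table with a symbol of the Nduf (a, b, c, s or v), Uqcr or Atp5 series, of the Cox series from Cox4 to Cox8, or Sdha to Sdhd, or named as a mitochondrially encoded subunit (Mt-nd, Mt-cyb, Mt-co or Mt-atp), which gave 103 of 14410 listed genes, 13 of them mitochondrially encoded and 90 nuclear. The symbols also take in 8 assembly factors of complex I (Ndufaf), which are counted among its nuclear members unless they are set apart by name. Each row of the table is counted as a gene. The rows Ndufv3_2, Uqcrb_2 and Cox6b1_2 repeat the symbol of another member with a suffix and are counted as members of their own. All 103 members passed the filter on low values.

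The Phf8oe group held 2 libraries of CG4 cells transduced with a retrovirus in which the CAG promoter drove Phf8 and, through an IRES, GFP. The ctrl group held 2 libraries of CG4 cells transduced with the same vector carrying GFP alone. All cells were wild type apart from the virus, were sorted for GFP 2 days after transduction, grown on, and held in differentiation medium for 3 days. Whether each replicate was transduced separately is not in the labels, and p-values measure the spread between these samples only, which may be technical.

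The respiratory chain passes electrons from NADH (complex I) and succinate (complex II) through complex III to oxygen at complex IV, and the proton gradient that complexes I, III and IV build drives ATP synthesis by complex V. Most subunits are encoded in the nucleus, made in the cytosol and imported. Complexes I, III, IV and V also hold subunits encoded by the circular mitochondrial DNA, which is transcribed as long strands from both strands of the circle and then cut into messenger RNAs. Complex II is encoded in the nucleus alone. Differentiating oligodendrocytes are known for a high demand for ATP and lipid precursors while they build myelin.

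Library totals lay between 39945215 and 41149255 normalized counts, and about 28400000 to 47800000 reads lay behind them as judged from the spacing of the values, fewest in Phf8oe replicate 2. The estimates are rough for Phf8oe replicate 1 and ctrl replicate 2, where the spacing was fitted weakly (correlation 0.47 and 0.40). The correlation was 0.89 in Phf8oe replicate 2 and 0.73 in ctrl replicate 1. Phf8, the histone demethylase carried by the virus, had 5650 and 10796 normalized counts in the Phf8oe libraries and 2026 and 2205 in the ctrl libraries, a 3.69-fold difference that did not pass the threshold (limma, Benjamini-Hochberg adjusted p = 0.0631). All 9 oligodendrocyte lineage markers used were listed, with summed values of 644071 and 587237 in Phf8oe and 417599 and 417685 in ctrl; 3 rose (Mbp, Mag and Mog) and 1 fell (Pdgfra). Of 5 astrocyte markers 3 were listed, with sums of 10882 and 19682 in Phf8oe and 79180 and 80804 in ctrl. Gfap, which fell, made up nearly all of these sums, and Slc1a2 was lower in both Phf8oe libraries without passing. Aldh1l1 rose (32 and 44 in Phf8oe, 9 and 10 in ctrl), and Aqp4 and Gjb6 were not listed. The 6 neuronal markers summed to 6143 and 6728 in Phf8oe and 12918 and 9501 in ctrl. Of 5 fibroblast and vessel markers 1 was listed, the collagen gene Col1a1, which fell, with 121 and 164 in Phf8oe and 454 and 437 in ctrl (log2 fold change -1.65, limma adjusted p = 0.00361). Of 5 microglial markers 1 was listed, with 11 and 10 in Phf8oe and 8 and 8 in ctrl. Of 5 muscle markers 3 were listed, with sums of 85 and 63 in Phf8oe and 69 and 60 in ctrl. The part of these marker shifts in the results below was not tested. In cultures of mixed cells, a change in the share of cells and a change in RNA per cell cannot be told apart.

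Respiratory chain transcripts were, as a group, slightly higher in Phf8oe than in ctrl, and the mitochondrially encoded ones were raised by the larger factor. Of the 103 members 17 rose in Phf8oe and none fell (limma, Benjamini-Hochberg adjusted over all genes, threshold 0.05). Of all 14368 tested genes 7.64% were called, with 2.99% higher and 4.65% lower in Phf8oe. The limma-voom fit called 17 members higher and 0 lower, limma without robust moderation called 7 higher, with the replicate block 1, and with no variance trend 0 members and 0 of all genes. Of the 17, 9 were mitochondrially encoded and 8 belonged to complex I or its assembly. The log2 fold change lay above 0 in 95 of 103 members, against 50.4% of all tested genes, and both Phf8oe libraries stood above both ctrl libraries in 90 members, against 28.9% of all tested genes. Both stood below in 1, Ndufv2, against 28.7% of all tested genes, and the groups overlapped in 12. The median log2 fold change over the members was 0.24, beside 0.00 over all tested genes. At an unadjusted p under 0.05, 50 members were higher in Phf8oe, against 12.7% of all tested genes, and none lower. Without ctrl replicate 1 and without ctrl replicate 2 none of the 17 calls passed (highest adjusted p = 0.398 and 0.247), although all 17 log2 fold changes stayed between 0.35 and 1.10. Scaling to equal upper quartiles gave 609 genes called higher and 589 lower in Phf8oe, where the deposited scaling gave 430 and 668, and 22 members called higher.

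The 13 mitochondrially encoded members are described first. Together they made up 5.34% and 4.76% of all normalized counts in the Phf8oe libraries, and 3.68% and 3.62% in the ctrl libraries. The share was thus 5.05% ± 0.415 in Phf8oe and 3.65% ± 0.0426 in ctrl (SD, n = 2 each), or 1.38 times as large in Phf8oe. Among the Phf8oe libraries the larger mitochondrial share was in replicate 1, which had the lower Phf8 value and the larger estimated number of reads. With 2 libraries, a relation of the share to either was not tested. An exact permutation test over 2 against 2 libraries cannot give a p below 0.3333, so none was run on the sums. The 90 nuclear members summed to 1.24% and 1.33% of the values in Phf8oe and to 1.15% and 1.13% in ctrl, a ratio of means of 1.13. The ratio of the mitochondrial to the nuclear sum was 4.31 and 3.58 in Phf8oe and 3.21 and 3.22 in ctrl. It was higher in both Phf8oe libraries, and these differed from each other by more than the ctrl libraries did.

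**Figure D1:**
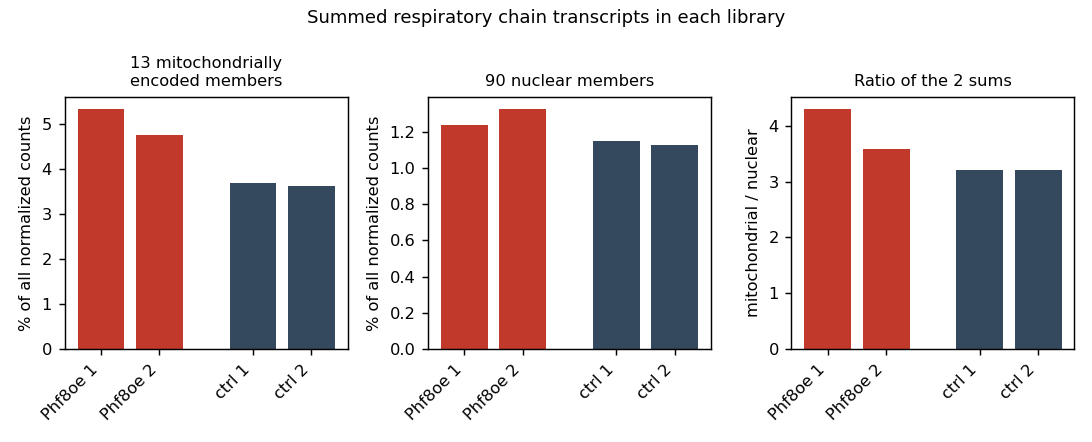
Summed normalized counts of the 13 mitochondrially encoded members and of the 90 nuclear members as a percentage of each library, and the ratio of these sums; each bar is 1 library. The mitochondrial share was 5.34% and 4.76% in Phf8oe and 3.68% and 3.62% in ctrl.

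Of the 7 mitochondrial subunits of complex I, which form the proton-pumping membrane arm, 5 rose. Mt-nd6, the protein-coding gene read from the opposite strand to the other 12, had 22727 and 21169 normalized counts in Phf8oe and 14458 and 15252 in ctrl (log2 fold change 0.56, SE 0.10, limma adjusted p = 0.0159). No source used here says whether counting used strand, so its value may include reads from the other strand. Mt-nd5 had 73752 and 68359 in Phf8oe and 48905 and 49929 in ctrl, a 1.44-fold rise (limma adjusted p = 0.0252). For both genes the lower Phf8oe library stood well clear of the higher ctrl library. Mt-nd2 rose 1.47-fold, with 131587 and 115190 in Phf8oe and 86286 and 81122 in ctrl (limma adjusted p = 0.027). Mt-nd1 had 70178 and 68352 in Phf8oe and 51362 and 45186 in ctrl, and Mt-nd3 had 11741 and 10648 in Phf8oe and 7911 and 8041 in ctrl. These rose by 1.44-fold and 1.40-fold (limma adjusted p = 0.0289 and 0.026).

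Mt-nd4l and Mt-nd4, whose reading frames overlap on a shared transcript, stood lowest in fold change among the 13 and did not pass. Mt-nd4l had 15315 and 14890 in Phf8oe and 12701 and 11477 in ctrl (log2 fold change 0.32, SE 0.10, limma adjusted p = 0.0891). Mt-nd4 had 16191 and 16725 in Phf8oe and 14489 and 12601 in ctrl (log2 fold change 0.28, SE 0.11, limma adjusted p = 0.138). In both genes the groups did not overlap. As a share of the mitochondrial sum, Mt-nd4l took 0.697% and 0.778% in Phf8oe and 0.856% and 0.794% in ctrl. This was lower in both Phf8oe libraries and was not tested, while the shares of Mt-nd4 overlapped.

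Mt-cyb, the cytochrome b of complex III, had 290222 and 256788 in Phf8oe and 201904 and 205296 in ctrl (log2 fold change 0.42, SE 0.12), without passing (limma adjusted p = 0.0633). Its share of the mitochondrial sum was 13.2% and 13.4% in Phf8oe and 13.6% and 14.2% in ctrl, lower in both Phf8oe libraries and not tested. Of the catalytic subunits of complex IV, Mt-co2 rose 1.42-fold and Mt-co3 1.46-fold. Mt-co2, which takes up electrons from cytochrome c, had 142560 and 130941 in Phf8oe and 103469 and 89536 in ctrl (limma adjusted p = 0.04). Mt-co3 had 271527 and 221138 in Phf8oe and 167043 and 169208 in ctrl (limma adjusted p = 0.0401), with the Phf8oe libraries further apart than the ctrl libraries. Mt-co1, which holds the oxygen-binding site, had 898535 and 750628 in Phf8oe and 598482 and 587339 in ctrl, the highest value of any member in each library. Its log2 fold change was 0.47 (SE 0.13) and did not pass (limma adjusted p = 0.0637).

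Both mitochondrial subunits of complex V, Mt-atp8 and Mt-atp6, rose; their reading frames overlap, so reads can fit both. Mt-atp8 had 36762 and 33179 in Phf8oe and 24359 and 22846 in ctrl (log2 fold change 0.57, SE 0.11, limma adjusted p = 0.0193). Mt-atp6, the subunit that forms the proton path, had 217087 and 206586 in Phf8oe and 152865 and 147941 in ctrl, a 1.41-fold rise (limma adjusted p = 0.0333). Over the 13 genes the log2 fold change ran from 0.28 to 0.57 with a median of 0.51, and both Phf8oe libraries stood above both ctrl libraries in every gene. Shares within the mitochondrial sum overlapped between the groups for 9 of the 13 genes. They were higher in both Phf8oe libraries for Mt-nd2 and Mt-atp8, and lower in both for Mt-cyb and Mt-nd4l. By order alone, 2 against 2 libraries stand apart in a proportion of 0.3333 of cases, and differences in these shares were not tested. Without Phf8oe replicate 1 the median log2 fold change of the 13 was 0.44, and without Phf8oe replicate 2 it was 0.57. Reads of these genes can also fit copies of mitochondrial DNA in the nuclear genome.

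**Figure D2:**
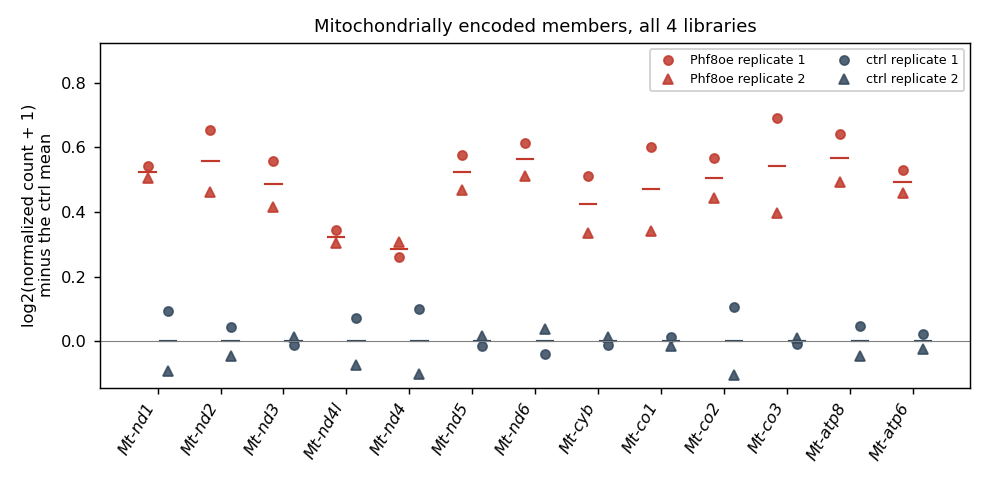
Values of the 13 mitochondrially encoded members in all 4 libraries, as log2(normalized count + 1) minus the mean of the ctrl libraries; circles and triangles are replicates 1 and 2, and short lines are group means. All Phf8oe points lie above all ctrl points of the same gene, lowest for Mt-nd4 at a mean difference of 0.28.

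Among the 45 nuclear members of complex I and its assembly, 8 rose, none fell and 37 did not pass, with a median log2 fold change of 0.24. Of the 7 nuclear core subunits, which carry the iron-sulfur clusters and the NADH site, Ndufs7 rose. Ndufs7, which holds the last cluster before ubiquinone, had 3711 and 3390 in Phf8oe and 2158 and 2493 in ctrl (log2 fold change 0.61, SE 0.11, limma adjusted p = 0.0159). Ndufs8, another iron-sulfur subunit, had 2671 and 2584 in Phf8oe and 1996 and 2044 in ctrl, just short of passing (limma adjusted p = 0.0521). Ndufv2, a subunit of the NADH-oxidizing module, had 4426 and 4242 in Phf8oe and 4566 and 4431 in ctrl (log2 fold change -0.05, SE 0.10). It was the 1 member with both Phf8oe libraries below both ctrl libraries, by a difference smaller than its error.

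Accessory subunits of complex I surround the core and are needed for its stability. Of 30 such members 4 rose. Ndufb2 had 2465 and 2407 in Phf8oe and 1714 and 1770 in ctrl, a 1.40-fold rise (limma adjusted p = 0.026). Ndufa2 had 1221 and 1281 in Phf8oe and 839 and 929 in ctrl, a 1.42-fold rise (limma adjusted p = 0.0368). For Ndufb10 the values were 3282 and 3455 in Phf8oe and 2398 and 2549 in ctrl, and for Ndufb4 2691 and 2883 in Phf8oe and 2004 and 2179 in ctrl, rises of 1.36-fold and 1.33-fold (limma adjusted p = 0.0322 and 0.0461). In all 4 genes the replicates lay closer to each other than to the other group. Ndufs4, a subunit of the NADH-oxidizing module, had 2943 and 2962 in Phf8oe and 2215 and 2371 in ctrl without passing (limma adjusted p = 0.0575). The log2 fold change of Ndufs5 was -0.06 (SE 0.10), with overlapping groups. Without Phf8oe replicate 2, or with scaling to equal totals, Ndufb4 did not pass (limma adjusted p = 0.0589 and 0.0539).

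Assembly factors bind complex I while it is built and leave the finished enzyme. Of 8 listed, 3 rose, with a median log2 fold change of 0.41. Ndufaf6 had 754 and 583 in Phf8oe and 308 and 416 in ctrl, the largest fold change of any member at 1.85-fold, with a wide spread in both groups (log2 fold change 0.89, SE 0.20, limma adjusted p = 0.0323). Leaving out a library moved it between 0.67 and 1.10 on the log2 scale. Ndufaf2 had 876 and 867 in Phf8oe and 625 and 580 in ctrl, and Ndufaf3 had 1756 and 1825 in Phf8oe and 1277 and 1345 in ctrl. These rose 1.45-fold and 1.37-fold (limma adjusted p = 0.0374 for each). Ndufaf1 had 987 and 1177 in Phf8oe and 712 and 826 in ctrl without passing (limma adjusted p = 0.0638), and for Ndufaf4 the log2 fold change was -0.0048 (SE 0.12).

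**Figure D3:**
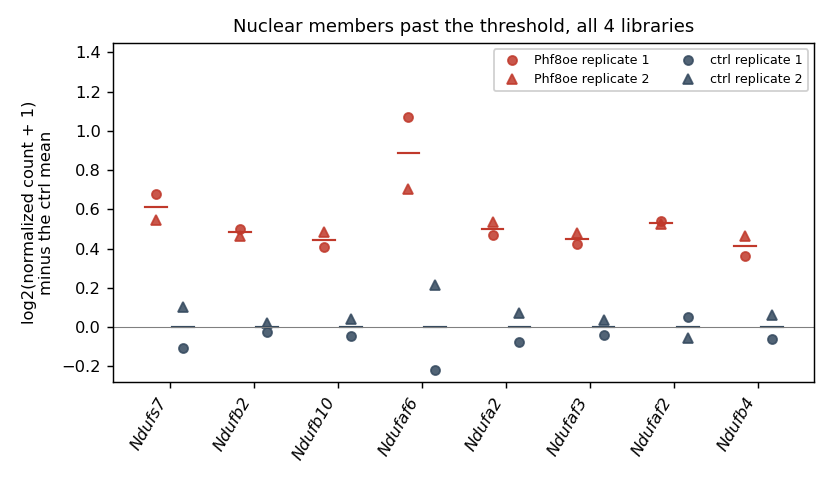
Values of the 8 nuclear members that rose, in all 4 libraries, as log2(normalized count + 1) minus the mean of the ctrl libraries; circles and triangles are replicates 1 and 2, and short lines are group means. The groups do not overlap in any of the 8, and Ndufaf6 has the widest spread between replicates.

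Some of these genes overlap neighbours in the RefSeq assembly GRCr8, and no source used here says whether counting used strand, so where genes overlap their reads may be mixed. Ndufa2 overlaps Tmco6, which had 560 and 558 in Phf8oe and 338 and 424 in ctrl (log2 fold change 0.56, limma adjusted p = 0.0671). Ndufaf3 overlaps Impdh2, which had 10394 and 10927 in Phf8oe and 7737 and 8744 in ctrl (log2 fold change 0.37, limma adjusted p = 0.0627). Ndufb2 overlaps Braf, which went the other way, with 332 and 334 in Phf8oe and 497 and 504 in ctrl (log2 fold change -0.59, limma adjusted p = 0.0471). Among members that did not pass, Cox8a overlaps Macrod1, which rose, with 3044 and 2778 in Phf8oe and 1882 and 1966 in ctrl (log2 fold change 0.60, limma adjusted p = 0.01375). In all, 17 of 87 placed members overlapped another tested gene, and 42 had at least 1 pseudogene named after them in RefSeq, with which they can share reads.

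Complexes II to V had no nuclear member past the threshold, beside 2.99% of all tested genes called higher. Most of their members were higher in both Phf8oe libraries, against 28.9% of all tested genes. Their nuclear medians lay close together on the log2 scale, at 0.20 for complex II, 0.22 for complex III, 0.19 for complex IV and 0.20 for complex V, beside 0.24 for complex I. At an unadjusted p under 0.05, higher in Phf8oe were 22 of 45 nuclear members of complex I, 1 of 4 of complex II, 4 of 9 of complex III, 4 of 14 of complex IV and 6 of 18 of complex V. Of all tested genes 12.7% were higher by that measure. Differences between complexes were not tested. Relative to the ctrl mean, the medians in Phf8oe replicates 1 and 2 were 0.24 and 0.25 for complex I, 0.22 and 0.19 for complex II, 0.19 and 0.28 for complex III, 0.16 and 0.17 for complex IV, and 0.14 and 0.26 for complex V. The replicates lay close together for complexes I, II and IV and further apart for III and V. Without the assembly factors, the inhibitor and 1 other factor, 5 of 79 nuclear members rose, with a median of 0.21.

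In complex II, which oxidizes succinate and is also part of the citric acid cycle, all 4 subunits were higher in both Phf8oe libraries. Sdhd, a membrane anchor, had 5761 and 5716 in Phf8oe and 4384 and 4914 in ctrl (log2 fold change 0.31, SE 0.10, limma adjusted p = 0.0971). Sdha, the flavoprotein, had 10049 and 9380 in Phf8oe and 8345 and 8582 in ctrl (limma adjusted p = 0.237). For Sdhc, the other anchor, the log2 fold change was 0.21 (SE 0.09). Sdhb, the iron-sulfur subunit, had 7011 and 7516 in Phf8oe and 6693 and 6747 in ctrl (limma adjusted p = 0.506).

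In complex III, Uqcrq, a small subunit that contacts cytochrome b, came nearest to the threshold, with 7048 and 7308 in Phf8oe and 5804 and 5394 in ctrl (log2 fold change 0.36, SE 0.10, limma adjusted p = 0.0572). Uqcr11 had 5725 and 6179 in Phf8oe and 4719 and 4671 in ctrl (limma adjusted p = 0.0644). The core protein Uqcrc1 had 9156 and 10241 in Phf8oe and 9841 and 9126 in ctrl, overlapping groups with a log2 fold change of 0.03 (SE 0.11), while the other core protein Uqcrc2 stood at 0.21 (SE 0.09) and the Rieske iron-sulfur protein Uqcrfs1 at 0.16 (SE 0.10). Cytochrome c1 (Cyc1) is also a subunit of complex III, but its symbol lies outside the member series. It is given below with the electron carriers.

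Nuclear subunits of complex IV do not carry the redox centres but stabilize and tune the enzyme, several as isoforms that differ between tissues. Cox4i1 had 14105 and 14734 in Phf8oe and 16022 and 14589 in ctrl, and Cox5a had 3911 and 4217 in Phf8oe and 4246 and 4065 in ctrl. Their log2 fold changes were -0.08 (SE 0.10) and -0.03 (SE 0.10), with overlapping groups. Cox6a1, the isoform of most tissues, had 35558 and 32814 in Phf8oe and 29763 and 27118 in ctrl (log2 fold change 0.27, SE 0.11, limma adjusted p = 0.163). The isoform of heart and skeletal muscle Cox7a1 was near the floor, with 25 and 25 in Phf8oe and 14 and 17 in ctrl (limma adjusted p = 0.291). Cox6b2, known from testis, had 278 and 142 in Phf8oe and 90 and 134 in ctrl. Its log2 fold change of 0.85 carried an SE of 0.36 (limma adjusted p = 0.188), and Phf8oe replicate 2 lay closer to ctrl replicate 2 than to the other Phf8oe library. Cox5b stood at a log2 fold change of 0.10, Cox6b1 at 0.14, Cox7a2l, which joins complexes III and IV, at 0.18 and Cox8a at 0.20, none past the threshold. The other row with the Cox6b1 symbol, Cox6b1_2, stood at 0.06 with overlapping groups. Ndufa4 and Ndufa4l2 were counted with complex I by their symbols. Ndufa4, known as a subunit of complex IV, had 6019 and 6636 in Phf8oe and 5724 and 5336 in ctrl (log2 fold change 0.19, SE 0.10). Its relative Ndufa4l2, known from hypoxia, had 88 and 72 in Phf8oe and 57 and 53 in ctrl (limma adjusted p = 0.248).

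Complex V consists of a catalytic head, a turning ring of c subunits and a stalk that holds the head. Atp5f1b, the catalytic beta subunit, had 74780 and 85001 in Phf8oe and 71212 and 68427 in ctrl, and Atp5f1a 27857 and 32887 in Phf8oe and 26454 and 26499 in ctrl. Both had log2 fold changes of 0.19 (SE 0.12) without passing. Atp5f1e, the small epsilon subunit, stood at 0.38 (SE 0.13, limma adjusted p = 0.0923), and Atp5s, which is not part of the finished enzyme, at 0.39 (SE 0.17). The 3 genes for the c ring, Atp5mc1, Atp5mc2 and Atp5mc3, encode the same mature protein and stood at 0.20, 0.28 and 0.24, with the groups apart in each. Atp5mc2 had 23419 and 23028 in Phf8oe and 18745 and 19511 in ctrl (limma adjusted p = 0.117). The 3 lowest log2 fold changes of all members included Atp5if1, the natural inhibitor of the synthase, at -0.11 (SE 0.11), and Atp5md, a small membrane subunit, at -0.10 (SE 0.14), the other being Cox4i1. Atp5if1 had 2477 and 2743 in Phf8oe and 2915 and 2705 in ctrl, so the groups overlapped.

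**Figure D4:**
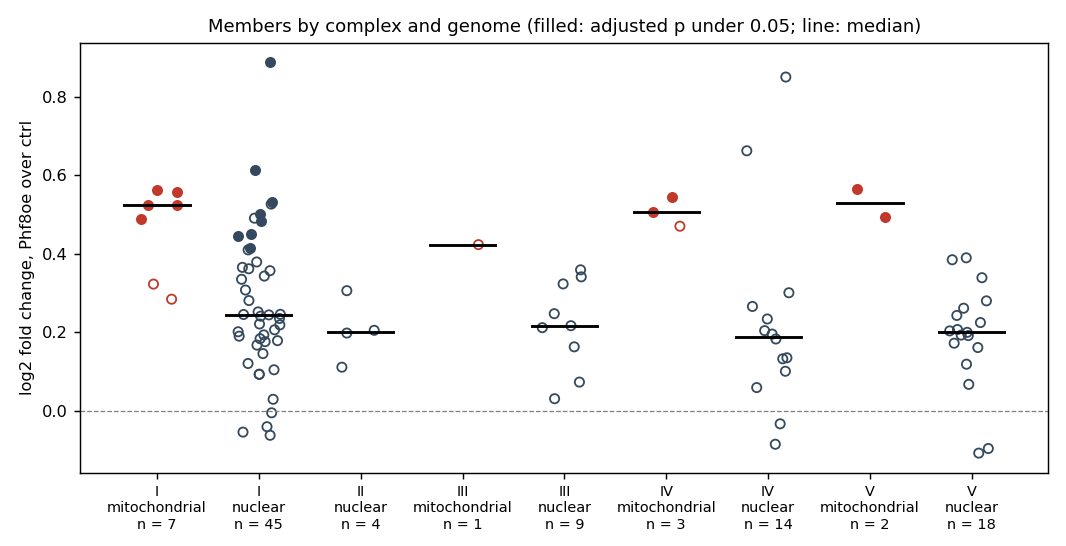
Log2 fold change of Phf8oe over ctrl for all 103 members, by complex and by the genome that encodes them; each circle is 1 gene, filled where the adjusted p was under 0.05, and lines are medians. Mitochondrial medians are 0.52, 0.42, 0.51 and 0.53 for complexes I, III, IV and V, and nuclear medians lie between 0.19 and 0.24.

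Within each complex that draws on both genomes, the mitochondrial median stood above the nuclear one. The mitochondrial genes are cut from shared long transcripts, so these complexes are not separate observations. The medians were 0.52 for the 7 mitochondrial and 0.24 for the 45 nuclear members of complex I, and 0.51 for the 3 mitochondrial and 0.19 for the 14 nuclear members of complex IV. In complex V they were 0.53 for 2 mitochondrial and 0.20 for 18 nuclear members. Complex III set its 1 mitochondrial gene at 0.42 beside 0.22 for 9 nuclear ones. Over all members the mitochondrial median of 0.51 stood 0.29 above the nuclear median of 0.21 on the log2 scale. This difference was 0.20 without Phf8oe replicate 1 and 0.37 without Phf8oe replicate 2, and it carries no p-value. Mitochondrial genes differed more between the Phf8oe replicates (median 0.12 on the log2 scale, higher in replicate 1) than nuclear members did (median -0.05).

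Promoters of nuclear members were looked at because the genes are known to be set by shared factors, of which nuclear respiratory factor 1 (NRF1), the ETS family with GABP, and YY1 are the best described. RefSeq promoter windows of GRCr8, 250 bases before to 50 after the annotated start, were matched for 77 of 90 nuclear members. The letters searched on both strands were GCATGCGC for NRF1, CCGGAAG for ETS and AAGATGGC for YY1, and no matches of different motifs overlapped in these 77. Shown are Ndufs7 and Ndufa2, which rose and hold a match, Ndufb2, which rose and holds none, Ndufa11, which did not pass and holds 1 run in which the NRF1 letters match 4 times, overlapping on both strands, and Cox4i1, one of the 3 lowest members. Capitals mark the matches.
Ndufs7 (chr7:10110449-10110748, minus strand): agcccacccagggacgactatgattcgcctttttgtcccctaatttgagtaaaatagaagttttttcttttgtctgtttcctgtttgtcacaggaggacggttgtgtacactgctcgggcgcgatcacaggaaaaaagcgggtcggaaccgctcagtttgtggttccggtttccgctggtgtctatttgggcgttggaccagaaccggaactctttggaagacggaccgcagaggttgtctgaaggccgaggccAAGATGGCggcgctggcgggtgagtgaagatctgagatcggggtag
Ndufa2 (chr18:28631835-28632134, minus strand): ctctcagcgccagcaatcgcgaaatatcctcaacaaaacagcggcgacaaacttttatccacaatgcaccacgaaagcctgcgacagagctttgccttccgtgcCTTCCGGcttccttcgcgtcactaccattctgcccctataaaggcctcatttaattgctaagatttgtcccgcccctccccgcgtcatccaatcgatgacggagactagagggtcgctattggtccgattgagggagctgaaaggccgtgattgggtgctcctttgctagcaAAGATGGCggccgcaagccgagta
Ndufb2 (chr4:69334057-69334356, plus strand): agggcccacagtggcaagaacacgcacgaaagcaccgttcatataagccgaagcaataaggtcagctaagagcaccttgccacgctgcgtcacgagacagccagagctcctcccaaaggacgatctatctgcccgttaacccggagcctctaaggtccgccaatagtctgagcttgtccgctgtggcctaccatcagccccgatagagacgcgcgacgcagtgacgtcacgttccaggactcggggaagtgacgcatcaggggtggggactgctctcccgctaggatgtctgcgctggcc
Ndufa11 (chr9:1637364-1637663, plus strand): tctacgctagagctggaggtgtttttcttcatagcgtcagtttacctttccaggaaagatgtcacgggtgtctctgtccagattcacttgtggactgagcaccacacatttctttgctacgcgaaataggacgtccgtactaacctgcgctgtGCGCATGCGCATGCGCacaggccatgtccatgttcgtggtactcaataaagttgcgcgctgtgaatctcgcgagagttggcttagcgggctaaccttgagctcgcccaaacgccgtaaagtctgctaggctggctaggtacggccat
Cox4i1 (chr19:65630133-65630432, plus strand): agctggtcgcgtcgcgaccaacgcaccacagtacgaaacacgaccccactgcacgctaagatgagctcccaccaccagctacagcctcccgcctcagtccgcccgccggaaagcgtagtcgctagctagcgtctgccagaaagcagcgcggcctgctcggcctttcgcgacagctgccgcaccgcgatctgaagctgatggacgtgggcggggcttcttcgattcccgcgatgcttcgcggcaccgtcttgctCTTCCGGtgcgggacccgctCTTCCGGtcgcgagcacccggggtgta

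In Ndufs7 and Ndufa2 the capitals after the start are the YY1 letters, and in Ndufa2 those before it are the ETS letters on the opposite strand. Both matches in Cox4i1 are ETS letters on the opposite strand, after the start. At least 1 of the 3 motifs stood in 45.5% of the 77 member promoters, in 23.9% of 11551 promoters of tested genes and in 13.3% of all 33469 promoters. The NRF1 letters stood in 12.99% of member promoters and 4.89% of those of tested genes, the ETS letters in 27.3% and 16.3%, and the YY1 letters in 20.8% and 5.10%. Of the 7 members that rose and had a window, 2 held a match, and of the 70 that did not pass, 33 did. A gene starting within 1000 bases in the opposite direction was found for 32.5% of member promoters and 15.8% of those of tested genes. A match is a run of letters and no measured binding site.

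Nuclear members are short genes, and short genes as a whole stood higher in Phf8oe. From start to end in GRCr8 the 87 placed nuclear members spanned a median of 7.17 kb, beside 24.95 kb over the 12555 placed tested genes. Among genes up to 8.17 kb long, the 51 nuclear members had a median log2 fold change of 0.24 and the other genes 0.09. Between 8.17 and 18.0 kb the 21 members stood at 0.18 and other genes at 0.05, and between 18.0 and 33.9 kb the 13 members stood at 0.21 and other genes at 0.01. Genes of over 75.3 kb stood at -0.13, with only 2 members among them. Gene length thus moved with the fold change, and its part in the members' values was not tested beyond these medians. The mitochondrial genes were not placed.

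**Figure D5:**
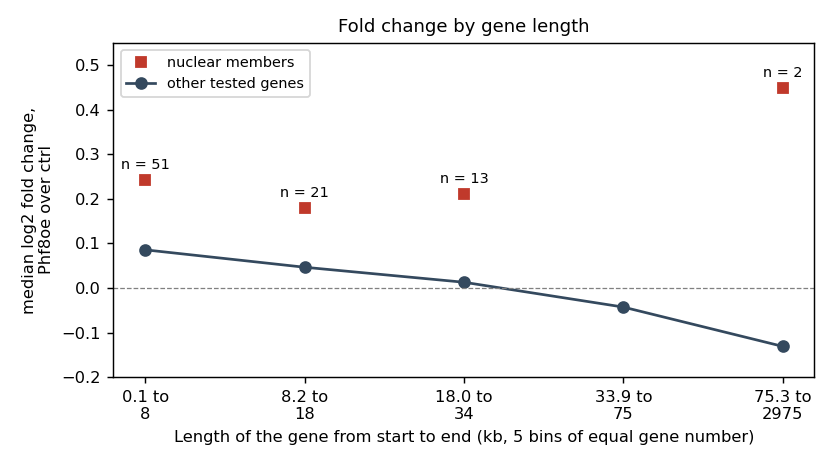
Median log2 fold change of Phf8oe over ctrl in 5 bins of gene length (start to end, kb) for nuclear members (squares, with their number) and other tested genes (circles). Other genes run from 0.09 in the shortest bin to -0.13 in the longest, and members lie above them in each bin that holds any, with only 2 in the last.

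Other genes that serve the chain were taken from lists. Beside the counts below, 2.99% of all tested genes were called higher and 12.7% were higher at an unadjusted p under 0.05. Of 40 further assembly factors 5 rose and none fell, with a median log2 fold change of 0.25. Cox17, a copper carrier for complex IV, had 1294 and 1393 in Phf8oe and 828 and 860 in ctrl (log2 fold change 0.67, SE 0.12, limma adjusted p = 0.0131). Tmem70, which helps to assemble complex V, rose 1.56-fold, Oxa1l, which inserts proteins into the inner membrane, 1.37-fold, Sdhaf4, for complex II, 1.77-fold and Bcs1l, for complex III, 1.42-fold, with limma adjusted p from 0.0296 to 0.0487. None of 19 electron carrier genes passed in limma (7 were higher at an unadjusted p under 0.05). The list took in cytochrome c1 (Cyc1), itself a subunit of complex III, with 13649 and 14363 in Phf8oe and 11764 and 11186 in ctrl. It also took in cytochrome c (Cycs), at a log2 fold change of 0.17. None of 28 protein import genes passed either (10 at an unadjusted p under 0.05), with Hspd1 at 0.26 and Hspa9 at 0.25. The median log2 fold change was 0.21 over the import genes, as over the nuclear members, and 0.17 over the electron carriers. It lay above 0 in 25 of 28 import genes and 14 of 19 electron carriers, against 50.4% of all tested genes.

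Genes that copy and express mitochondrial DNA gave no call in 24 (6 were higher at an unadjusted p under 0.05), with a median log2 fold change of 0.15. Tfam, which packages and transcribes mitochondrial DNA, had 1577 and 1753 in Phf8oe and 1669 and 1708 in ctrl. The mitochondrial RNA polymerase gene Polrmt had 3252 and 2798 in Phf8oe and 2349 and 2394 in ctrl (log2 fold change 0.35, SE 0.11, limma adjusted p = 0.0849). Elac2, which cuts transfer RNAs out of the long transcripts, had 7295 and 7292 in Phf8oe and 5795 and 5797 in ctrl (limma adjusted p = 0.0634), while Fastk stood at 0.26 and Lrpprc, which stabilizes mitochondrial messenger RNAs, at 0.18. Among 15 regulators of mitochondrial biogenesis the median was -0.13 and 1 fell, beside 4.65% of all tested genes called lower. It was Ppard, a lipid-sensing nuclear receptor, with 3401 and 3397 in Phf8oe and 4847 and 4531 in ctrl (limma adjusted p = 0.0262). Nrf1 had 979 and 1010 in Phf8oe and 1176 and 1013 in ctrl, Gabpa 1458 and 1676 in Phf8oe and 1805 and 1962 in ctrl, and Yy1 2508 and 2275 in Phf8oe and 2710 and 2570 in ctrl. Ppargc1a, a coactivator of the programme, was low and its groups overlapped, with 67 and 48 in Phf8oe and 47 and 101 in ctrl. For Nrf1, Gabpa and Yy1 both Phf8oe libraries stood below both ctrl libraries without passing (limma adjusted p = 0.529, 0.184 and 0.419). The same order was seen in 7 of the 15 regulators, against 28.7% of all tested genes, while 5 of the 15 had a log2 fold change above 0. Gabpa overlaps the member Atp5pf, so their reads may be mixed.

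In the citric acid cycle and pyruvate entry 3 of 22 rose: fumarase (Fh) 1.45-fold, the pyruvate dehydrogenase subunit Pdha1 1.38-fold and the NADP-linked dehydrogenase Idh2 1.42-fold, with limma adjusted p from 0.0322 to 0.0408. Of 15 membrane and mass markers 2 rose, Slc25a4, the ADP/ATP carrier, with 23568 and 26822 in Phf8oe and 18063 and 17377 in ctrl (limma adjusted p = 0.0289), and Chchd6, of the cristae, 1.39-fold (limma adjusted p = 0.0463). Of 12 genes against reactive oxygen, Prdx3, the mitochondrial peroxiredoxin, rose 1.49-fold (limma adjusted p = 0.0214). Medians of these lists were 0.22, 0.24 and 0.13 on the log2 scale.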

How the data were processed

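RNA was prepared with a NEBNext Ultra II library kit and sequenced from both ends (150 bases each), per the labels. The submitters' processing notes name bcl2fastq 2.20, Trimmomatic 0.36, STAR 2.5.2b, DESeq2 and, as rat genome builds, rn6 with Rnor_6.0. Gene counter, annotation release and strand setting: not given in the sources used here. Judged from its values, the signal the authors deposited is a library-scaled (normalized) count for each gene, whereas the labels name it raw: in Phf8oe replicate 2 the table skips 85 and in ctrl replicate 2 5 of the whole numbers between 10 and 300, as reads scaled and then rounded would. The value of 1 read, estimated from this spacing, was 0.955 and 1.42 in Phf8oe and 0.845 and 1.02 in ctrl. The 4 sample files equal their columns of the series table.

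A count model needs unscaled reads, so limma 3.58.1 in R 4.3.3 was run on log2(value + 1), which understates fold changes of low genes. Genes with at least 10 in at least 2 libraries were tested (14368 of 14410), with group as the only term and robust, trended moderation (residual degrees of freedom 2, prior 6.99 at the median). P-values are two-sided, with Benjamini-Hochberg adjustment over all tested genes and a threshold of 0.05. The procedure was tested on simulated data with changes of at least 2-fold. All members had smaller changes, so the simulation does not show how well changes of their size are found. Members and lists were chosen with earlier results of these data known. Named are all members past the threshold, all Mt- genes, the 2 most abundant members of each complex, isoform groups, the 3 lowest members, Phf8, and up to 3 genes of each list. A further 26 were named after their values were seen, as were genes overlapping a member and rows that repeat a symbol. Binning by protein length had been planned, but gene length was used because no protein lengths were at hand. Levels of different genes were not compared per length. Alternatives covered scaling, pseudocount, filters, moderation, voom weights, a replicate block and leaving out each library. Tables and plots were made in Python 3.11.15 with pandas 2.3.3, numpy 2.4.6 and matplotlib 3.10.9. A marker gene of the oligodendrocyte list is not reported here and was left out of its sum and counts.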

Additional observations from a re-analysis of the deposited data

How the results depend on the processing

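No member was called lower under any of the 15 alternatives, and every nuclear and mitochondrial median stayed above 0. The count of members called higher, 17 as reported, was 7 without robust moderation and 0 with no variance trend, and ran from 0 to 22 with a library left out. It was 0 without ctrl replicate 1 and 0 without ctrl replicate 2 (26 and 25 members at an unadjusted p under 0.05), where the lone ctrl library is assumed to vary as the Phf8oe libraries do. Genes called over all tested genes, 1098 as reported, were 0 with no variance trend and ran from 20 to 2145 with a library left out. With no variance trend, 1466 genes were higher and 1667 lower at an unadjusted p under 0.05, among them 34 members higher and 0 lower. The calls among the other pathway lists, 12 as reported, were 20 with equal upper quartiles, 7 without robust moderation and 0 with no variance trend, and ran from 0 to 25 with a library left out. With the replicate block, 373 genes, 1 member (Mt-atp8) and 1 gene of the other lists were called; the labels do not say that a number marks a shared culture, and the replicate differences correlated between the groups at -0.126 across genes. Crossed pairing, added after seeing the data, called 2354 genes, 25 members and 27 genes of the other lists.

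With equal upper quartiles the medians were 0.26 for nuclear members, 0.29 for complex I, 0.25 for complex II and 0.23 for complex IV, and with equal totals complex II stood at 0.18. With a library left out, medians ran from 0.20 to 0.25 for nuclear members, 0.44 to 0.57 for Mt- members, 0.23 to 0.26 for complex I, 0.19 to 0.22 for complex II, 0.19 to 0.28 for complex III, 0.16 to 0.20 for complex IV and 0.14 to 0.26 for complex V, and the mitochondrial minus nuclear difference from 0.20 to 0.37. Signs turned for values near 0: with equal upper quartiles, Cox5a at 0.0111, Tfam at 0.0217 and Ndufaf4 at 0.0391. With a library left out, log2 fold changes ran from -0.0871 to 0.0215 for Cox5a, -0.10 to 0.0541 for Tfam, -0.13 to 0.12 for Ndufaf4, -0.0497 to 0.11 for Uqcrc1 and -0.82 to 0.27 for Ppargc1a. The causes were not tested. Few members have low values, and the number of libraries, 2 a group, limits the precision.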
